A study of Mus musculus with 2 samples.

Results

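Genes of the cell division cycle were compared in back skin of mice with and without a constitutively active aryl hydrocarbon receptor (AhR), with DNA replication genes set against genes of mitosis and the kinetochore. The list held 44 genes, given by name, out of 12393 genes that the array could name. Of these, 42 were found on the array through the platform's symbols, by 83 probe sets that each stood for 1 gene. The mitotic cyclin gene Ccnb1 and the chromosomal passenger gene Cdca8 were not matched to a probe set here. A gene counted as measured when its brightest probe set lay above a floor signal of 34.7 on at least 1 array, and 38 members did, of 8894 measured genes in all. Tyms, Cdc45, Cenpe and Kif20a lay below the floor on both arrays.

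The transgenic mice express a constitutively active form of AhR in keratinocytes, and the wild-type mice are littermates without the transgene. Both groups were 10 days old and gave whole back skin, and strain, sex and further treatment are not given in the sources used here. The label of the transgenic array, K14Ahr, carries the short name of the basal keratinocyte keratin encoded by Krt14, whose promoter is widely used to express transgenes in that layer. Biotin-labelled total RNA was read on 1 array per genotype, and the number of animals behind each array is not stated in the labels. There is therefore no replicate error and no test. The deposited values are linear signals, and a difference is given on the log2 scale as transgenic signal over wild-type signal. An error of 1 probe set was taken from the 2535 genes for which both arrays read several probe sets above the floor. It is the SD of the difference between a gene's 2 brightest probe sets, scaled to 1 probe set, and was 0.25 on the log2 scale. All probe sets were read on the same 2 arrays. This error therefore holds disagreement between probe sets only, and no variation between animals, RNA samples, labellings or arrays. The median log2 ratio of all measured genes was -0.05, and the central 95% lay between -0.79 and 0.96. As a check of the label, Cyp1a1, the classical AhR target, read 1802 in transgenic and 40.8 in wild-type skin, 44.2-fold higher. Both probe sets of Ahr read slightly higher, with log2 ratios of 0.32 and 0.44. Krt5 and Krt14, the keratins that define basal epidermis, were bright on both arrays (2754 and 3328 in transgenic skin, 1868 and 1987 in wild-type skin).

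A dividing cell first licenses its origins with the MCM helicase and builds nucleotides and replication forks, and later assembles a spindle, checks kinetochores and cuts its cyclins. The genes of the first step are switched on largely through E2F factors. Those of the later step are mostly controlled through CHR elements and CCAAT boxes, bound by the DREAM and MYB-MuvB complexes and by NF-Y. In skin of this age dividing cells lie in the basal epidermis and above all in the matrix of growing hair follicles. AhR is known to slow the passage from G1 into S phase in several cell types, in part through the inhibitor gene Cdkn1b.

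The promoters of the members were searched for the motifs of these programmes. Of 44 members, 37 had a promoter window in the RefSeq table (GRCm38.p6), which runs from 250 bases before to 50 bases after the gene start, and all 27025 genes of that table served as background. Both strands were searched, overlapping matches were each counted, and E2F cores and CCAAT boxes can share letters. The E2F core was searched as TTGGCGC, with the further spellings TTCCCGC, then also TTGCCGC, and lastly TTCGCGC. It was found in 7 of 12 replication genes (58.3%), in 4 of 21 mitosis genes (19.0%) and in 10.9% of all genes. The CHR element was searched as TTTGAA and in the further spelling TTCGAA. It was found in 3 of 12 replication genes (25.0%), in 15 of 21 mitosis genes (71.4%) and in 21.7% of all genes. All 15 of these mitosis genes also held a CCAAT box, a pairing seen in 9.65% of all genes. The CCAAT box was found in similar shares of both classes, 75.0% of replication and 81.0% of mitosis genes, against 41.1% of all genes. The AhR response element TNGCGTG was found in 4 members, Cdca8, Cdkn1b, Kif11 and Mcm2 (10.8%), against 5.84% of all genes. A match describes the letters in this window only. The promoter windows of 6 members are shown from 190 bases before to 30 bases after the start, 5′ to 3′, with E2F cores, CHR elements and CCAAT boxes in capitals. Cenpa (chr5:30666696-30666915, plus strand), Cdk1 (chr10:69352883-69353102, minus strand) and Mki67 (chr7:135716350-135716569, minus strand) are the mitosis genes whose signals differed most among the brighter members, downward for Cenpa and Mki67 and upward for Cdk1. Mcm6 (chr1:128359676-128359895, minus strand) and Mcm5 (chr8:75109319-75109538, plus strand) are helicase genes whose brightest probe sets read nearly alike on both arrays. Pcna (chr2:132253151-132253370, minus strand) is the replication gene with the highest ratio.
Cenpa: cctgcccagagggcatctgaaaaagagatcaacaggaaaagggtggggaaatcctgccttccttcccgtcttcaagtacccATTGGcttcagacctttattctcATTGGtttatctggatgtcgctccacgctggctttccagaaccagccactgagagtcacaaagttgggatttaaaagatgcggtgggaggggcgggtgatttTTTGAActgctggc
Cdk1: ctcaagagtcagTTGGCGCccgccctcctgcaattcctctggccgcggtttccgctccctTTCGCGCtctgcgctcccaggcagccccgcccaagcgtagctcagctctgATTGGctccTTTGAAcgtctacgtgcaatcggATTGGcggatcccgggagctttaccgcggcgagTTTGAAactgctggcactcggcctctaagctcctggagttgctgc
Mki67: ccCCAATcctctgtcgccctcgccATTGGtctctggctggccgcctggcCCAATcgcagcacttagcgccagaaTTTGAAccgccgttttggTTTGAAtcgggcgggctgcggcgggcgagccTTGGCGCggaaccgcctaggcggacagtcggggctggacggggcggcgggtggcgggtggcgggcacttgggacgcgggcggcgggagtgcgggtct
Mcm6: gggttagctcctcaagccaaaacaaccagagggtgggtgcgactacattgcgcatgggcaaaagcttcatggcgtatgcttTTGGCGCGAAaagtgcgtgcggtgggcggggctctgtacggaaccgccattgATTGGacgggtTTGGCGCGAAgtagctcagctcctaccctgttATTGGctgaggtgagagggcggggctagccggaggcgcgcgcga
Mcm5: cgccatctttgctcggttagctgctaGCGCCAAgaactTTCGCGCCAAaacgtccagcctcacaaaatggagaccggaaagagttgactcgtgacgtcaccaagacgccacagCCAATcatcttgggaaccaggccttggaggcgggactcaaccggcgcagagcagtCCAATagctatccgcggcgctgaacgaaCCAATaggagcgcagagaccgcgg
Pcna: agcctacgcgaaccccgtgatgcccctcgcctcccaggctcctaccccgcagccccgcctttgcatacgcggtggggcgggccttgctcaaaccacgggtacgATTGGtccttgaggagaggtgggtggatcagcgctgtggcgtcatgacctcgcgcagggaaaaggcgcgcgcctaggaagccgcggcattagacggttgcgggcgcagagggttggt
In these stretches CHR elements appear in Cenpa, Cdk1 and Mki67 and in none of the 3 replication genes. Pcna shows a CCAAT box alone.

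**Figure D1:**
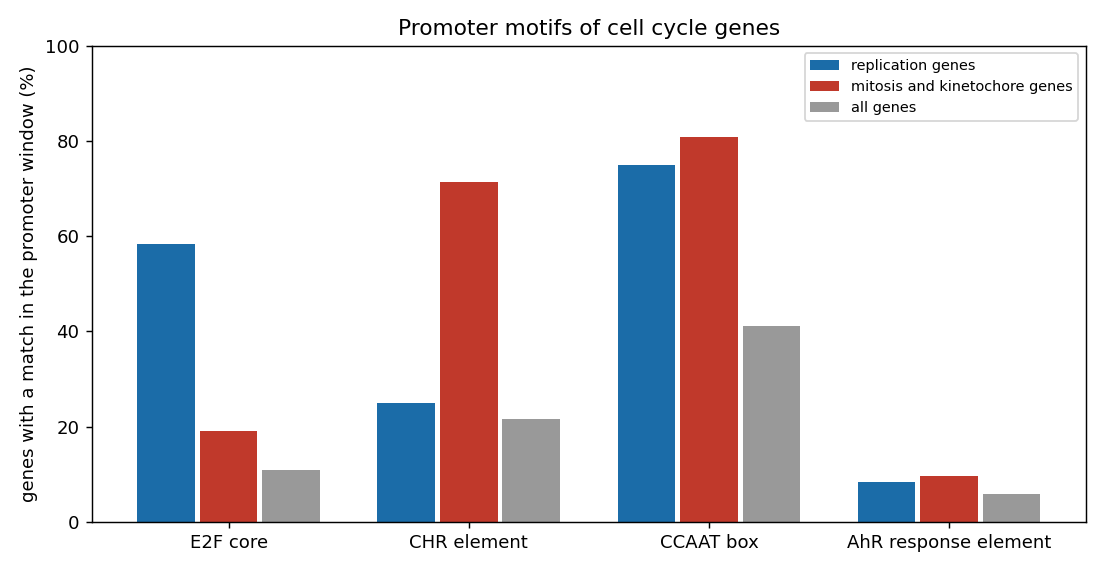
Share of genes, in percent on the vertical axis, whose promoter window holds each motif, for replication genes (12), mitosis and kinetochore genes (21) and all genes of the promoter table (27025). The E2F core was most frequent in replication genes (58.3%) and the CHR element in mitosis genes (71.4%).

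Most replication genes read almost the same in both genotypes, while the mitosis genes scattered in both directions. Of 38 measured members 1 differed by at least 2-fold, the centromeric histone gene Cenpa, which was lower. Among all measured genes 3.36% differed by that much, 2.27% upward and 1.09% downward, so that the count of members past this limit was near the background. At a 1.5-fold limit no member was higher (6.8% of all genes were) and 3 were lower, Cenpa, Plk4 and Mki67 (6.38% of all genes were). The median log2 ratio was -0.06 over 11 replication genes, -0.15 over 21 mitosis genes and 0.04 over 6 G1 regulators and inhibitors. The mitosis median lay 0.09 below the replication median, a difference that could not be tested. The replication median is the bound of Cdc6, and 3 of the mitosis values are bounds that could lie only below 0. Among genes above the floor on both arrays the medians were closer, -0.13 over 18 mitosis and -0.07 over 10 replication genes. With narrower classes, replication reduced to MCM subunits, Pcna and Cdc6 and mitosis without Mki67, Top2a, Ccna2, Plk4, Foxm1 and Melk, the difference was 0.01. The classes differed more in their scatter, which was not tested either. Among genes above the floor on both arrays, 7 of 10 replication genes differed by less than 1.1-fold, against 5 of 18 mitosis genes and 34.1% of all genes. The middle 50% of ratios spanned 0.08 for these replication genes, 0.37 for these mitosis genes and 0.42 for all such genes. Mitosis genes were somewhat dimmer, with a median signal of 104 against 147 for replication genes in transgenic skin and of 121 against 160 in wild-type skin. Among genes with a mean signal of at least 80 the spans were 0.09 over 9 replication genes, 0.35 over 13 mitosis genes and 0.42 over all.

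**Figure D2:**
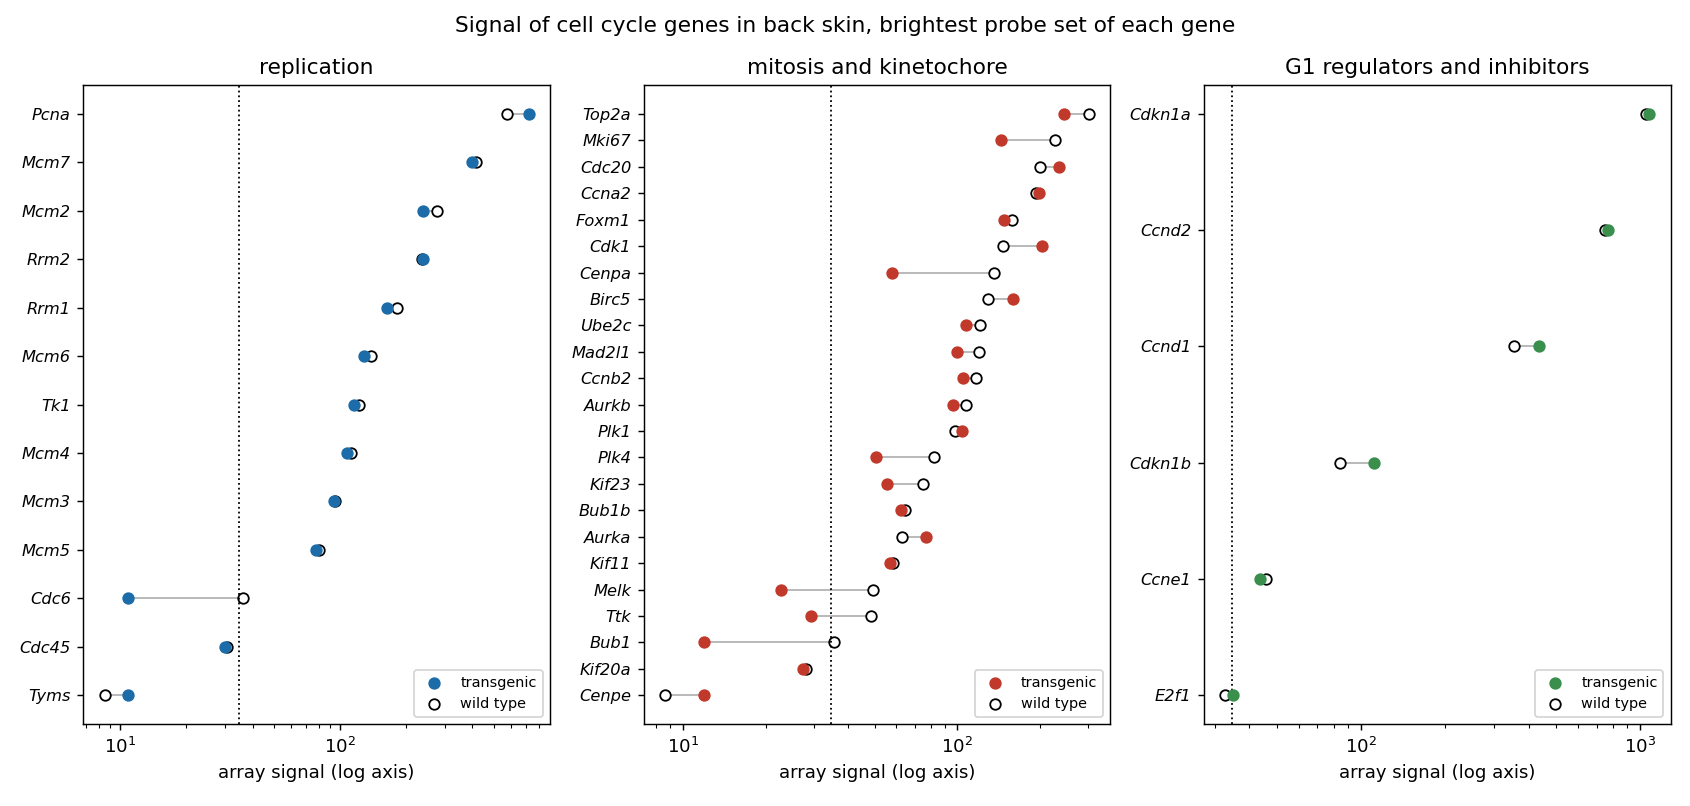
Array signal on a log axis for every member found on the array, 1 row per gene in 3 panels by class. Filled points are the transgenic array, open points the wild-type array, and the dotted line is the floor of 34.7. For replication genes above the floor on both arrays the points lie close together, while those of Cenpa, Plk4 and Mki67 stand apart. The points of Cdc6, Bub1 and Melk are also far apart, but their transgenic signals lie below the floor.

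**Figure D3:**
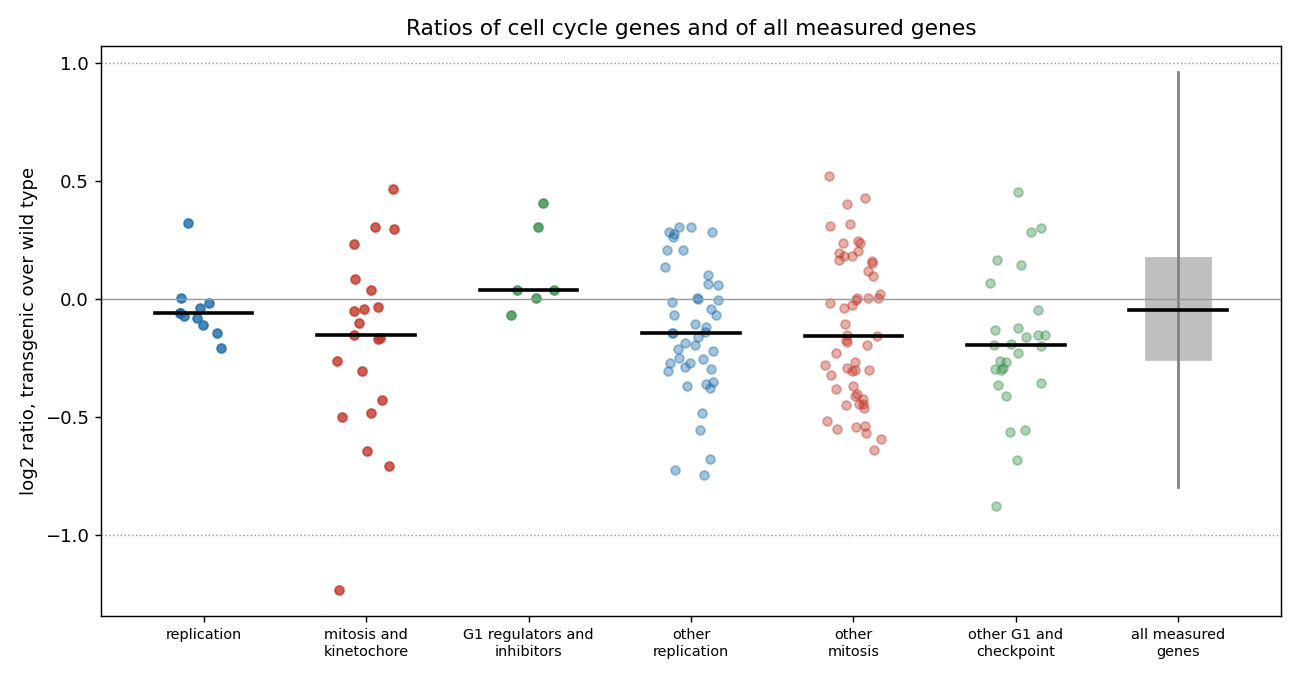
Log2 ratio (transgenic over wild type) on the vertical axis, 1 point per measured gene, for the 3 member classes and the 3 wider cell cycle lists, with black bars at the medians. For all measured genes the box gives the middle 50% and the line the central 95%, from -0.79 to 0.96. Cenpa alone lies past the dotted 2-fold line.

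The helicase subunits read nearly alike in both genotypes. Mcm2 to Mcm7 encode the 6 subunits of the ring that unwinds DNA, and all 6 read slightly lower in transgenic skin, with log2 ratios from -0.21 to -0.02. Mcm2 read 239 in transgenic and 277 in wild-type skin, the lowest ratio of the 6. Mcm3 read 94.3 in transgenic and 95.3 in wild-type skin, the highest of the 6. Mcm7 read 397 in transgenic and 417 in wild-type skin. All 6 ratios were smaller than the error of 1 probe set, and the direction is that of the 56.4% of all measured genes that lay below 0. Centring the ratios on the median of all genes left the replication median at -0.01. Probe sets of these genes did not always say the same. A dimmer probe set of Mcm7 had a log2 ratio of -0.47 while the other 3 lay between -0.09 and -0.07. The dimmer probe set of Mcm6 had a log2 ratio of -0.36 while its brightest had -0.11. A dimmer probe set of Mcm3 had a log2 ratio of 0.28 while its brightest had -0.02.

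Among the other replication genes above the floor on both arrays, Pcna alone departed from equality by more than 1 probe set's error, taking each gene's brightest probe set. Ratios near that error of 0.25 were common, since the median log2 ratio of all measured genes, taken without sign, was 0.22. Pcna, the sliding clamp that holds DNA polymerase on its template, read 721 in transgenic and 577 in wild-type skin, 1.25-fold higher. The ratio of Pcna ranked 1332 from the highest among 8894 measured genes. It comes from a single probe set, without a suffix in its name. Rrm1 and Rrm2 encode the subunits of ribonucleotide reductase, which makes deoxynucleotides. All 3 probe sets of Rrm2 were level, the brightest at 238 in transgenic and 237 in wild-type skin. The 2 probe sets of Rrm1 disagreed in direction, 164 in transgenic against 182 in wild-type skin for one and 153 against 123 for the other. Tk1, the thymidine kinase of the salvage pathway, read 115 in transgenic and 122 in wild-type skin, a log2 ratio of -0.08. The 3 probe sets that stand for Tyms alone, the thymidylate synthase gene, read between 2.0 and 10.9 on both arrays, below the floor. A further probe set that also matches a Tyms pseudogene read 84.6 in transgenic and 99.1 in wild-type skin. Cdc6, which loads the helicase, read 10.9 in transgenic and 36.2 in wild-type skin, so the wild-type value lay just above the floor and the ratio is only a bound of at most -0.06. Cdc45, a part of the active helicase, read 29.9 in transgenic and 30.5 in wild-type skin.

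Mitotic cyclin and kinase genes lay on both sides of equality. Cdk1, the kinase of mitotic entry, had the highest ratio of all members, 203 in transgenic and 147 in wild-type skin, 1.38-fold higher. Its ratio ranked 843 from the highest among 8894 measured genes. Its partner cyclin gene Ccnb2 read 105 in transgenic and 117 in wild-type skin, a log2 ratio of -0.16. The 2 probe sets of Ccna2, the cyclin of S phase and G2, had log2 ratios of 0.04 and -0.27. Of the Aurora kinase genes, Aurka, whose product sits at the spindle poles, read 77.0 in transgenic and 62.7 in wild-type skin, a log2 ratio of 0.30. Aurkb, the kinase gene of the passenger complex at centromere and midzone, read 96.9 in transgenic and 108 in wild-type skin, a log2 ratio of -0.15. Birc5, the gene of the passenger subunit survivin, had a log2 ratio of 0.31 (160 in transgenic and 129 in wild-type skin). Plk1, a kinase needed from mitotic entry to cytokinesis, was level at 104 in transgenic and 98.3 in wild-type skin. The kinase that starts centriole duplication, Plk4, stood at the other end. It read 50.4 in transgenic and 82.3 in wild-type skin, 1.63-fold lower, and its next probe set had a log2 ratio of -0.52. On neither array did its last probe set exceed the floor. Melk, a kinase gene of dividing cells, read 22.8 in transgenic and 49.1 in wild-type skin, at least 1.42-fold lower.

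The 4 members of the spindle checkpoint lay below 0, 2 of them as bounds, and the 2 of the ubiquitin step that ends mitosis lay on either side. Mad2l1, which holds back the anaphase-promoting complex, read 99.6 in transgenic and 120 in wild-type skin, a log2 ratio of -0.26. Bub1b, a partner in the same inhibitor, was level with 62.4 in transgenic and 64.7 in wild-type skin. Ttk, the kinase that recruits the checkpoint to kinetochores, read 29.4 in transgenic and 48.5 in wild-type skin, at least 1.40-fold lower. Bub1, a kinetochore kinase gene, read 11.9 in transgenic and 35.5 in wild-type skin, again a value barely above the floor on 1 array, with a bound of at most -0.03. Cdc20, the activator of the anaphase-promoting complex, read 235 in transgenic and 200 in wild-type skin, a log2 ratio of 0.23. Ube2c, the ubiquitin-conjugating enzyme gene of that complex, had a log2 ratio of -0.17 (108 in transgenic and 122 in wild-type skin). Of the 6 genes, 5 lay below 0 and Cdc20 above, beside 56.4% of all measured genes below 0. The signs of Ttk and Bub1 were fixed by the filter, since only their wild-type signals lay above the floor. Bub1b moved to 0.04 when the ratios were centred by lowess.

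Cenpa had the ratio farthest from 0 of all members. It encodes the histone H3 variant that marks the centromere and on which the kinetochore is built. It read 58.0 in transgenic and 136 in wild-type skin, 2.35-fold lower, and its ratio ranked 35 from the lowest among 8894 measured genes. The value rests on 1 probe set, whose suffix marks a match to several transcripts of the same gene. Cenpe, the kinetochore motor gene, lay below the floor at 11.9 in transgenic and 8.6 in wild-type skin. After the value of Cenpa was seen, the other centromere genes of the wider mitosis list were singled out. Of 10 measured, 6 lay below 0 and 4 above, a split near that of all measured genes, of which 56.4% lay below 0. Their log2 ratios ran from -0.57 to 0.20, with a median of -0.24. The lowest were Cenpc1, which binds Cenpa nucleosomes (38.5 in transgenic and 57.1 in wild-type skin), and Cenpt (109 in transgenic and 158 in wild-type skin). Mis18a, a factor for loading new centromeric histone, had a log2 ratio of -0.45 and Cenpk of 0.20. None of these 10 came near the ratio of Cenpa.

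The spindle motors and the common proliferation markers were level or lower. Kif11, the motor that pushes spindle poles apart, read 56.7 in transgenic and 58.4 in wild-type skin, and its second measured probe set had a log2 ratio of -0.33. Kif23, a motor of the midbody, read 55.6 in transgenic and 74.8 in wild-type skin, a log2 ratio of -0.43. Kif20a, another motor of cytokinesis, lay below the floor at 27.3 in transgenic and 28.2 in wild-type skin. Mki67, the gene of the Ki-67 antigen that coats mitotic chromosomes, read 145 in transgenic and 227 in wild-type skin, 1.56-fold lower by its single probe set. Top2a, the topoisomerase that untangles sister chromatids, read 245 in transgenic and 302 in wild-type skin, 1.24-fold lower. Foxm1, a transcription factor gene that drives mitotic genes, was nearly level with 147 in transgenic and 158 in wild-type skin. These 3 markers lay below 0, while Cdk1 and Cdc20 lay above.

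**Figure D4:**
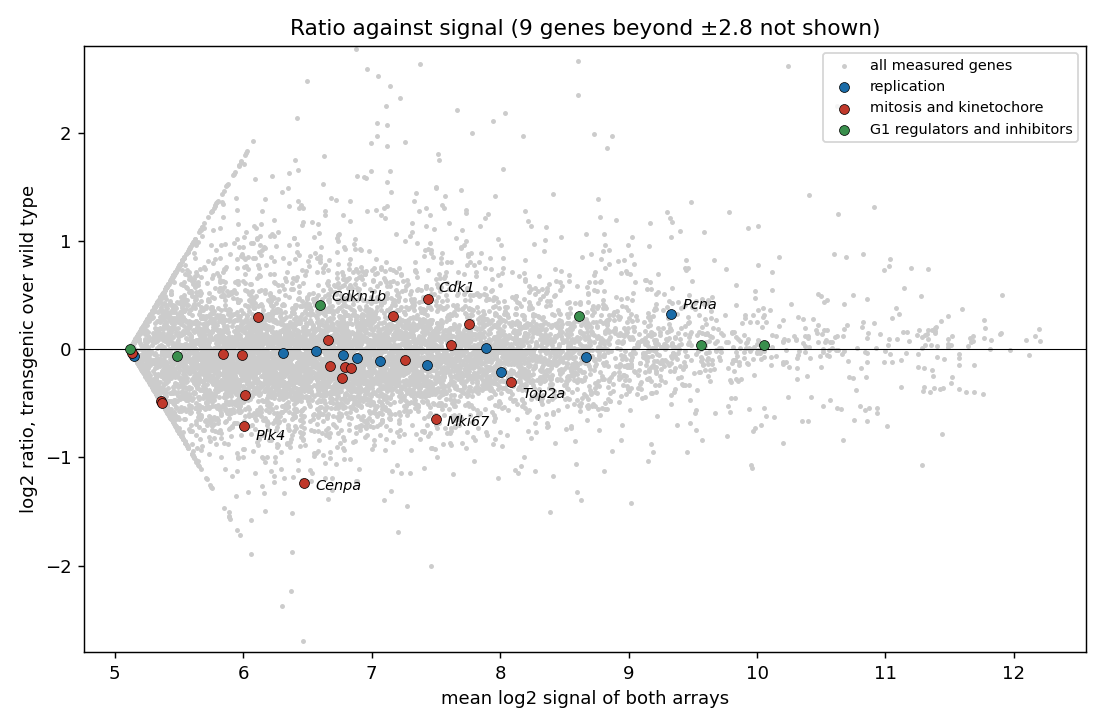
Log2 ratio (transgenic over wild type) against the mean log2 signal of both arrays, with all measured genes in grey and members coloured by class. Most replication genes lie close to the zero line, with Pcna highest at 0.32, while Cenpa, Plk4 and Mki67 lie at the lower side of the cloud. Bounds, such as that of Cdc6, are drawn at their floored values. On the vertical axis 9 genes beyond 2.8 on either side are left out.

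Regulators of G1 showed no difference beyond the error of 1 probe set apart from Cdkn1b and 1 of 3 probe sets of Ccnd1. Cdkn1b, an inhibitor of cyclin-dependent kinases that holds cells in G1, read 112 in transgenic and 84.3 in wild-type skin, 1.33-fold higher. Among 8894 measured genes, whose median log2 ratio without sign was 0.22, Cdkn1b ranked 1005 and Ccnd1 1416 from the highest. A further probe set of Cdkn1b was below the floor, with 14.7 in transgenic and 10.4 in wild-type skin. Cdkn1a, the inhibitor gene induced by p53, was level with 1078 in transgenic and 1049.9 in wild-type skin. The 3 probe sets of Ccnd1, the cyclin gene that answers growth factors, disagreed. The brightest read 436 in transgenic and 353 in wild-type skin, a log2 ratio of 0.30, while the others had -0.20 and -0.25. All 5 measured probe sets of Ccnd2, another D-type cyclin gene, lay between -0.18 and 0.11, the brightest at 767 in transgenic and 748 in wild-type skin. Ccne1, the cyclin gene of S-phase entry, read 43.7 in transgenic and 45.8 in wild-type skin. E2f1, the gene of an activator of replication genes, lay at the floor with 34.8 in transgenic and 32.8 in wild-type skin, so its ratio of at least 0.00 is a bound that says little, though it counts among the 6 values behind the median.

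**Figure D5:**
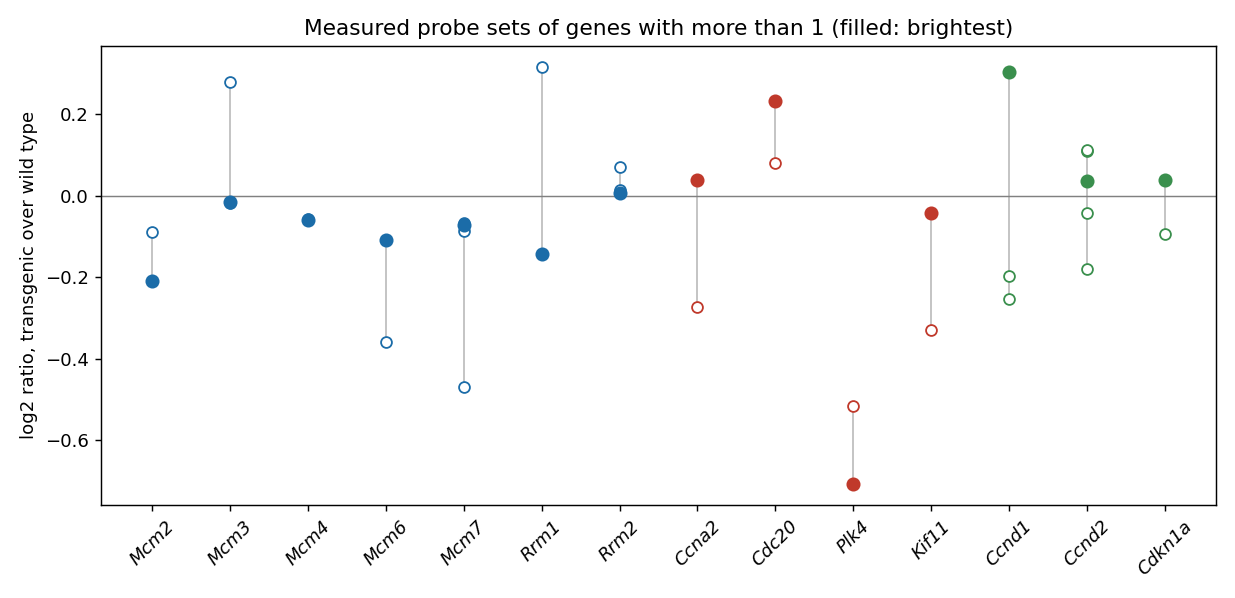
Log2 ratio (transgenic over wild type) for each measured probe set of the 14 members with more than 1, filled for the brightest and open for the others. Probe sets of Mcm3, Rrm1, Ccna2, Ccnd1, Ccnd2 and Cdkn1a lie on both sides of 0, while both measured probe sets of Plk4 lie clearly below.

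Disagreement of this kind was about as frequent in the members as elsewhere. Of the 14 members with several such probe sets, 6 had ratios on both sides of 0 (42.9%), and of all such genes 41.5% did. The median distance between the 2 brightest probe sets of a gene was 0.14 for the members and 0.21 for all genes. Counting each of the 60 measured probe sets by itself, 1 was at least 2-fold different, against 3.07% of all measured probe sets. The medians were then -0.06 over 22 replication and -0.16 over 25 mitosis probe sets. Both measured probe sets of Plk4 pointed downward, while those of Ccnd1 pointed both ways.

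The wider cell cycle lists lay slightly below all genes, and their replication genes were not as uniform as the members. Of 45 other measured replication genes 32 lay below 0 (71.1%, against 56.4% of all genes), with a median log2 ratio of -0.15 and none past 2-fold. Among these ratios 5 were bounds with only the wild-type signal above the floor, which could lie only below 0 and add to that share. Of the 45 genes, 13 differed by less than 1.1-fold (28.9%), near the 33.4% of all genes, and the middle 50% spanned 0.35. The lowest were Gins1, a subunit of the active helicase (43.6 in transgenic and 73.1 in wild-type skin, 1.68-fold lower), Dut, which removes dUTP (66.0 in transgenic and 109 in wild-type skin), and Timeless, a fork protection gene (24.1 in transgenic and 55.5 in wild-type skin, a bound of at most -0.68). The highest were the flap endonuclease gene Fen1 with a log2 ratio of 0.31, the primase gene Prim2 with 0.30 and the licensing gene Cdt1 with 0.28. The dimmer probe sets of Fen1 and Cdt1 lay on the opposite side of 0, at -0.23 and -0.26. Of 55 other measured mitosis genes, 5 of them bounds, 34 lay below 0 (61.8%), with a median log2 ratio of -0.16 and none past 2-fold. Bub3, a checkpoint gene, led them with 393 in transgenic and 274 in wild-type skin, 1.44-fold higher, and its second measured probe set had 0.31. Cks2, which binds cyclin-dependent kinases, followed with a log2 ratio of 0.43 and Cep55, a gene of the final cut between daughter cells, with 0.40. At the lower end stood Cenpc1, the condensin gene Ncapg2 with at most -0.64 and the kinesin gene Kif22 with -0.59. Of 28 other measured G1 and checkpoint genes, 1 of them a bound, 22 lay below 0 (78.6%), with a median log2 ratio of -0.20. The repressor E2F gene E2f5 was lowest at 56.6 in transgenic and 104 in wild-type skin, 1.84-fold lower, though its second probe set had -0.23. Cdkn1c, an inhibitor gene, and Rb1, the retinoblastoma gene, had log2 ratios of -0.68 and -0.56. The inhibitor genes Cdkn2b (0.45) and Cdkn2d (0.30) and the growth gene Myc (0.29) were highest.

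The cells that divide in this tissue were themselves not read in equal amounts. In whole skin, fewer cells of a type and less RNA per cell cannot be told apart. All 7 measured hair matrix and precortex markers were lower, by a median log2 ratio of -0.56, beside 56.4% of all measured genes below 0. Of these 7 ratios 1 is a bound with only the wild-type signal above the floor, which could lie only below 0. The summed signal of the 8 such markers on the array was 4394 in transgenic and 5879 in wild-type skin. Of 8 basal keratinocyte markers 7 were higher, and the median over all 8 was 0.63. The other, Trp63, was lower by its brightest probe set (358 in transgenic and 437 in wild-type skin). The summed signal of the 8 was 7962 in transgenic and 5244 in wild-type skin. All 10 macrophage markers were higher, by a median of 1.46, with a summed signal of 2587 in transgenic and 876 in wild-type skin. Of these 10 ratios 1 is a bound with only the transgenic signal above the floor, which could lie only above 0. None of the 5 T cell markers on the array lay above the floor. Markers of melanocytes, also cells of the growing follicle, were lower in 5 of 5. The medians were 0.88 for 5 suprabasal, 0.22 for 6 fibroblast, 0.34 for 5 endothelial and -0.69 for 6 skeletal muscle markers. The endothelial and the skeletal muscle list each hold 1 bound that could lie only below 0. The part of these shifts in the values of the cell cycle genes was not tested.

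The ratios of members with and without a motif overlapped. The 14 measured mitosis genes with a CHR element had a median log2 ratio of -0.11, from -1.23 for Cenpa to 0.46 for Cdk1, so the lowest and the highest member share the element shown in capitals above. The 4 mitosis genes with a window but no CHR element had a median of -0.38, from -0.71 to 0.31. Bub1 and Ttk, with the element, and Melk, without it, entered as bounds and could lie lower. The 7 measured replication genes with an E2F core had values between -0.14 and 0.01, and the 3 without one between -0.21 and 0.32. Among the 7, the value of Cdc6 is a bound of at most -0.06 and could lie below this range. Over all classes, 23 measured members with a CCAAT box had a median of -0.05 and 9 without one a median of -0.07, bounds included. The 3 measured members with an AhR response element were Cdkn1b (0.41), Kif11 (-0.04) and Mcm2 (-0.21), on both sides of 0.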

How the data were processed

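Back skin RNA from 2 mouse samples, 1 transgenic and 1 wild type by the source names in the labels, was labelled with biotin. The authors deposited 1 linear signal intensity per probe set, and the sources used here do not give the software. Both arrays had a 2% trimmed mean of 100.03, so the deposited intensities had been scaled. Of 22690 probe sets, 64 were controls and 20380 stood for 1 gene in the platform annotation of 2016, and symbols were updated through a GRCm38.p6 gene table.

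Signals were rescaled to equal trimmed means, raised to a floor (34.7, the 40th percentile of the non-control signals) and turned into log2 ratios with Python 3.11.15, numpy 2.4.6 and pandas 2.3.3. A gene took its brightest probe set. Ratios with 1 array at the floor are bounds. With 1 array per group no test was possible, the number of arrays limits the precision, and genes were called by size alone, at 2-fold. The calculation was tested on simulated arrays. All 44 members are named, and of each wider list the 3 highest and 3 lowest genes. Markers are given as counts, medians and sums, except Krt5, Krt14 and Trp63. Cenpt, Mis18a, Cenpk and Trp63 were named after their values were seen. Members and lists were chosen with earlier results of these data known. Promoter sequences are from RefSeq.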

Additional observations from a re-analysis of the deposited data

How the results depend on the processing

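The alternatives were the signals as deposited, median centring, quantile normalization, lowess centring (span 0.4), a lower floor (20th percentile), a higher floor (60th percentile), a pseudocount of 16 instead of any floor, the mean over probe sets, leaving out suffixed probe sets, every probe set by itself and narrower classes. The replication median stayed between -0.07 and -0.01, the mitosis median between -0.16 and -0.05 and the G1 median between -0.01 and 0.17. The difference of mitosis minus replication ran from -0.11 to 0.01, and only the narrower classes gave a positive value. In place of 1 member past 2-fold there were 4 with the lower floor, where Bub1 (-1.58), Cdc6 (-1.61) and Melk (-1.11) joined Cenpa on signals below 50. There were 0 with the higher floor, which bounds Cenpa at no more than -0.95, and 0 without suffixed probe sets, which removes Cenpa. A limit of 1.5-fold gave 3 members and one of 3-fold gave 0. Of 327 values of 38 single members under these alternatives, 11 moved by more than 0.25. Cenpa, the 1 member past 2-fold, stayed below 0 wherever it was measured. The signs of several smaller ratios depended on the processing. With the mean over probe sets Ccna2 went from 0.04 to -0.12, Ccnd1 from 0.30 to -0.05 and Rrm1 from -0.14 to 0.09. With lowess centring Mcm5 went from -0.04 to 0.05. No paired analysis was possible because each genotype has 1 array. Dim members limit what can be said, since 5 ratios are bounds and 4 members lay below the floor.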
